A study of Mus musculus with 40 samples.

Results

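The 8 genes described here encode the coactivators through which CREB family transcription factors work and the kinases that restrain them: the CREB-regulated transcription coactivators Crtc1, Crtc2 and Crtc3, the acetyltransferases Crebbp (CBP) and Ep300 (p300), and the salt-inducible kinases Sik1, Sik2 and Sik3. They were taken by symbol from a table of 55414 genes, and all 8 were found and averaged 1 TPM or more (a transcript abundance that corrects for transcript length and scales each library to the same total) in every comparison. Expression was measured by RNA sequencing in 22 libraries, each 1 sample, of the mouse collecting duct line mpkCCD, which is immortalized. Every sample, controls included, was grown on permeable supports and received 0.1 nM dDAVP, a vasopressin analogue that acts on the V2 receptor, for 72 hours in medium with dexamethasone.

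The groups were control clones labelled WT, with 11 libraries, and the knockout labels ATF1-KO with 5, ATF1/CREB1-KO with 3, and ATF1/CREB1/CREM-KO with 3. The library numbers fall into 3 consecutive runs, each with its own control clones, although no label calls a run a batch. The ATF1-KO label stood in run 1 beside control clones 1 to 5, the ATF1/CREB1-KO label in run 2 beside control clones 6 to 8, and the ATF1/CREB1/CREM-KO label in run 3 beside control clones 9 to 11. Each label was compared with the control clones of its own run, so the 3 comparisons share no library. There was no group without dDAVP, and replicates of a knockout label are not stated to be separate clones, so p-values measure the spread between these samples, which may be technical.

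As background, vasopressin raises cAMP in collecting duct principal cells and activates protein kinase A, and ATF1, CREB1 and CREM bind the cAMP response element of target promoters. In resting cells the salt-inducible kinases phosphorylate CRTC proteins, which then bind 14-3-3 proteins and stay in the cytoplasm. Protein kinase A inhibits these kinases and the phosphatase calcineurin removes the phosphates, so that CRTC proteins enter the nucleus and bind CREB factors, while CBP and p300 are recruited by phosphorylated CREB and acetylate histones. Sik1 is itself a known CREB target, which makes it a feedback gene of the pathway. Most of this control acts on proteins, and RNA levels do not report it.

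Some facts of the whole series bear on every value below. The 90 ribosomal protein genes took 7.29% to 15.4% of all TPM in the 6 run 2 libraries and 2.73% to 4.2% in the other 16, so levels were not compared across runs except where said. Within run 2, ATF1/CREB1-KO replicate 3 had the lowest share, 7.29%, against 14.5% to 15.4% in control clones 6 to 8. The targeted genes checked the labels only in part. Atf1 in the libraries labelled ATF1-KO was -0.70 on the log2 scale from its control clones (limma adjusted p = 0.555). It overlapped the controls under ATF1/CREB1-KO (-0.37, adjusted p = 0.635) and ATF1/CREB1/CREM-KO (-0.33, adjusted p = 0.304). Creb1 fell by 0.97 in the libraries labelled ATF1/CREB1/CREM-KO (adjusted p = 0.00305) but was at -0.58 (adjusted p = 0.471) in those labelled ATF1/CREB1-KO. A limma fit over all 22 libraries called the latter change (adjusted p = 0.00775). Crem RNA was not lower in the libraries labelled ATF1/CREB1/CREM-KO, with a log2 change of 0.41 (adjusted p = 0.116). The knockout state therefore rests on the labels. Aqp2, the vasopressin-regulated water channel gene, fell by 6.34 on the log2 scale in the libraries labelled ATF1/CREB1/CREM-KO (adjusted p = 0.00086), where Cdh1 was the other principal cell marker called, and rose by 0.61 (adjusted p = 0.00689). Of 13 principal cell markers, 7 to 9 were at 1 TPM or more in every library of a group, with Tfap2b at 0 in every group but the one labelled ATF1-KO and Elf5 at 0 also in control clones 6 to 8. The summed TPM of 6 intercalated cell markers was 14.4 to 103, and that of 11 markers of other kidney and stromal cells 2.07 to 25.7. In bulk samples, fewer cells of a type and less RNA per cell cannot be told apart.

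In the control clones Crtc2 had the highest mean of the CRTC genes in every run, while the leading gene of the other 2 families differed between runs. Crtc2, the main CRTC of many metabolic tissues, was at 51.1 ± 9.96 TPM (SD, n = 5) in run 1 and 53.4 ± 4.93 TPM (SD, n = 3) in run 3. Crtc1, best known from neurons, was at 20.5 ± 5.14 TPM (SD, n = 5) and 26.4 ± 2.54 TPM (SD, n = 3) in the same runs. Crtc3 was the lowest of the 8 in every run, with 3.10 ± 0.245 TPM in run 1 (SD, n = 5), and 2.81 ± 0.959 and 4.41 ± 0.541 TPM in runs 2 and 3 (SD, n = 3 each). In run 3 the order by mean TPM was Crtc2, Ep300, Crebbp, Crtc1, Sik2, Sik3, Sik1, Crtc3, and no neighbours in it had overlapping ranges. In run 1 the order was Crtc2, Ep300, Crebbp, Sik3, Crtc1, Sik2, Sik1, Crtc3, where the ranges of neighbours overlapped except between Sik2 and Sik1 and between Sik1 and Crtc3. Run 2 had another order, Crebbp, Ep300, Crtc2, Sik2, Crtc1, Sik1, Sik3, Crtc3, with overlapping neighbours at Ep300 and Crtc2, at Sik2 and Crtc1, and at Crtc1 and Sik1.

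The libraries of run 2 thus differed from the rest in these genes as well as in ribosomal share. Across 13334 genes, the median difference of control clones 6 to 8 from the other 8 control clones was -1.34 on the log2 scale. Crtc2 at -1.94, Sik3 at -1.58, Ep300 at -1.42, Crtc1 at -1.19 and Sik2 at -0.99 lay nearest that shift, while Sik1 was at -0.58 and Crtc3 at -0.28. Crebbp was the exception in sign, at 0.36, with 84.4% of genes having a lower difference. Its paralog Ep300 averaged 12.8 ± 0.370 TPM across control clones 6 to 8 and 42.1 ± 4.92 TPM across control clones 9 to 11, against 38.7 ± 3.89 and 33.3 ± 2.08 TPM for Crebbp (SD, n = 3 each). These differences are between control clones and are given as a description, and run and clone cannot be told apart in them.

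**Figure D1:**
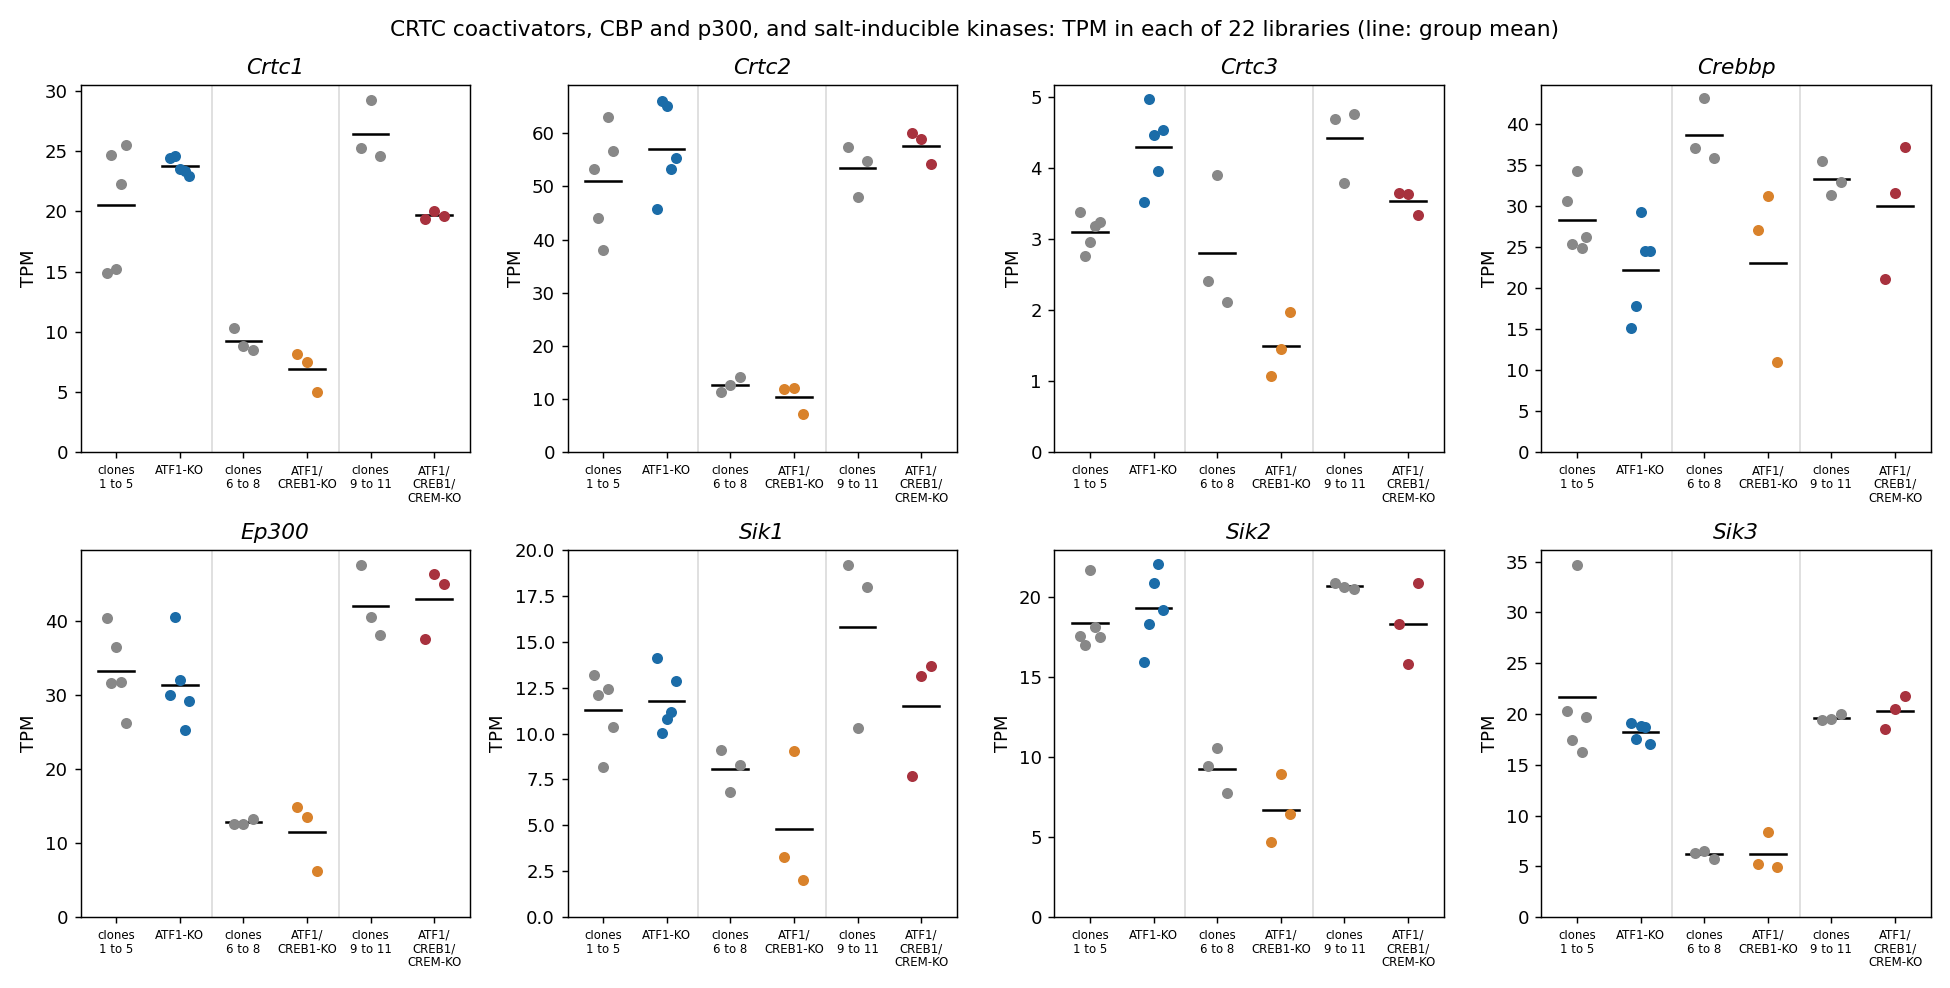
TPM of the 8 genes in each of the 22 libraries, 1 panel per gene, with group on the x axis, a point per library and a line at each group mean; grey points are control clones and coloured points the libraries of each knockout label. Crtc1, Crtc2, Ep300, Sik2 and Sik3 were lower in both groups of run 2 than in the other runs. Crtc3 separated the libraries labelled ATF1-KO, all at 3.52 TPM or more, from control clones 1 to 5, all at 3.38 TPM or less.

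No member passed the threshold of an adjusted p under 0.05 in any of the 3 comparisons (limma on log2(TPM + 1), p-values adjusted by Benjamini-Hochberg over every gene tested). In the libraries labelled ATF1-KO, 0 of 8 members were called beside 0% of 13318 genes, and 1 member and 1014 genes (7.61%) had an unadjusted p under 0.05. In those labelled ATF1/CREB1-KO, 0 of 8 were called beside 9 of 12579 genes (0.0715%), with 0 members and 1199 genes (9.53%) under 0.05 unadjusted. In those labelled ATF1/CREB1/CREM-KO, 0 of 8 were called beside 1216 of 13258 genes (9.17%), with 1 member and 3582 genes (27%) under 0.05 unadjusted. A fit over all 22 libraries with a shared spread also called 0 members in each comparison, beside 0, 609 (4.58%) and 1066 (8.02%) of 13295 genes. The median log2 change of the 8 members was 0.07, -0.41 and -0.18 in the 3 comparisons in that order, against -0.0035, -0.03 and -0.05 for all genes tested. In sign, 5 of 8 members were higher in the libraries labelled ATF1-KO, 0 of 8 in those labelled ATF1/CREB1-KO and 3 of 8 in those labelled ATF1/CREB1/CREM-KO. The share of all genes by sign was not counted. The signs in ATF1/CREB1-KO depended on single libraries. With 1 library left out, Ep300 there reached 0.13 and Sik3, at -0.03 in the main fit, reached 0.094.

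**Figure D2:**
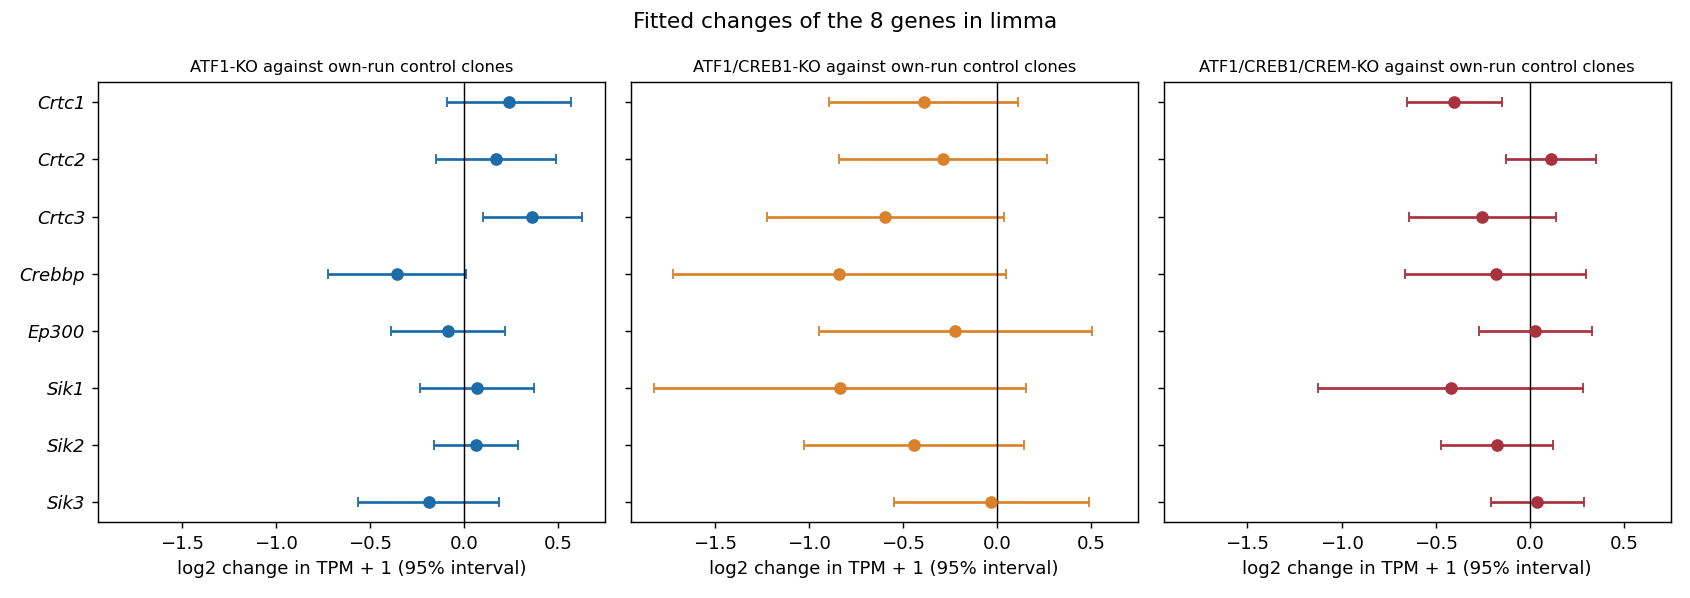
Fitted log2 changes in TPM + 1 with 95% intervals for the 8 genes (rows), 1 panel per knockout label against the control clones of its run. The intervals are widest for ATF1/CREB1-KO, where all 8 points lie below 0 and Sik1 reaches from -1.82 to 0.16; Crtc3 in ATF1-KO and Crtc1 in ATF1/CREB1/CREM-KO are the points whose interval leaves out 0.

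Among the CRTC coactivators, Crtc3 (ENSMUSG00000030527) was the member whose values separated from the control clones in all 3 comparisons, upward in one and downward in the others. It was at 3.38, 2.76, 2.96, 3.18 and 3.24 TPM in control clones 1 to 5 and at 3.52, 4.97, 4.46, 3.96 and 4.53 TPM in the libraries labelled ATF1-KO. All 5 of the latter were above all 5 controls, a separation that 0.563% of all genes showed in that direction. The log2 change was 0.36 (SE 0.120, 95% interval 0.10 to 0.62) with an adjusted p of 0.608. In run 2, Crtc3 was at 2.41, 3.90 and 2.11 TPM in control clones 6 to 8 and at 1.08, 1.45 and 1.97 TPM in the libraries labelled ATF1/CREB1-KO. All 3 were below the controls, as 12.4% of genes were, with a log2 change of -0.59 (SE 0.268, adjusted p = 0.549). In run 3 it was at 4.69, 3.79 and 4.76 TPM in control clones 9 to 11 and at 3.64, 3.63 and 3.33 TPM in the libraries labelled ATF1/CREB1/CREM-KO. Here too all 3 lay below the controls, as 20.2% of genes did, and the log2 change of -0.25 (SE 0.165) had an adjusted p of 0.369.

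The change of Crtc3 differed between the labels ATF1/CREB1-KO and ATF1-KO in a fit with a shared spread, and the call depended on single libraries. The change in the libraries labelled ATF1/CREB1-KO minus that in the libraries labelled ATF1-KO was -0.95 on the log2 scale (SE 0.221, 95% interval -1.42 to -0.49, limma adjusted p = 0.0342 over all genes), in a fit over all 22 libraries in which 1.46% of genes passed for this difference. It was the 1 difference past the threshold among the 24 computed for the 8 members, and 3.57% of genes passed for ATF1/CREB1/CREM-KO minus ATF1-KO and 0.188% for ATF1/CREB1/CREM-KO minus ATF1/CREB1-KO. It compares changes measured in different runs and at levels of 1.08 to 4.97 TPM. The shared spread gave the change in ATF1/CREB1-KO an SE of 0.175, against 0.268 from its own run. For ATF1-KO these SEs were 0.135 and 0.120. The difference was not tested with own-run spreads. Leaving out each of the 16 libraries in turn gave a difference of -1.09 to -0.76 with adjusted p from 0.00951 to 0.122, and the call was lost in 8 of the 16. The adjusted p was 0.0591 without control clone 2, 0.0506 without control clone 3, 0.0594 without control clone 6 and 0.122 without control clone 7. It was 0.0712, 0.0567 and 0.0641 without ATF1-KO replicates 2, 3 and 5, and 0.053 without ATF1/CREB1-KO replicate 1.

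Crtc1 (ENSMUSG00000003575) came closest to the threshold in the libraries labelled ATF1/CREB1/CREM-KO. It was at 25.3, 29.3 and 24.6 TPM in control clones 9 to 11 and at 19.4, 20.1 and 19.7 TPM in those libraries, which was 74.7% of the control mean. The 3 libraries lay below all 3 controls and close together, and 20.2% of all genes separated in that direction. The log2 change was -0.40 (SE 0.106, 95% interval -0.65 to -0.15), with an unadjusted p of 0.00738 and an adjusted p of 0.0646. Without ATF1/CREB1/CREM-KO replicate 1 it was -0.39 with an adjusted p of 0.0428, in a fit that called 3317 genes. In run 2 the values were 10.3, 8.85 and 8.48 TPM in control clones 6 to 8 and 8.20, 7.47 and 5.03 TPM in the libraries labelled ATF1/CREB1-KO. These groups did not overlap either, and 12.4% of all genes lay below the controls in that comparison. The log2 change was -0.39 (SE 0.214, adjusted p = 0.615). In run 1 the controls ranged from 14.9 to 25.5 TPM and the libraries labelled ATF1-KO from 22.96 to 24.6 TPM, within the control range.

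Crtc2 (ENSMUSG00000027936), the most abundant CRTC, had overlapping groups in each comparison. The libraries labelled ATF1-KO ranged from 45.8 to 66.1 TPM beside 38.1 to 63.0 TPM in their controls, with a log2 change of 0.17 (95% interval -0.15 to 0.49). Those labelled ATF1/CREB1/CREM-KO were at 60.0, 58.9 and 54.2 TPM beside 57.5, 47.9 and 54.8 TPM, with a log2 change of 0.11 (95% interval -0.13 to 0.35). In run 2 the values were 12.0, 12.2 and 7.29 TPM beside 11.3, 12.7 and 14.2 TPM, and replicate 3 alone lay below the controls.

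Of the acetyltransferases, Crebbp (ENSMUSG00000022521) had lower means than its controls under every label, without a call. It was at 37.1, 43.2 and 35.9 TPM in control clones 6 to 8 and at 27.0, 31.3 and 11.0 TPM in the libraries labelled ATF1/CREB1-KO. The groups did not overlap, a separation that 12.4% of all genes showed in that direction. The log2 change was -0.84 (SE 0.377, 95% interval -1.72 to 0.05, adjusted p = 0.548). Without replicate 3, the library with 11.0 TPM and the low ribosomal share, it was -0.40. In run 1, control clones 1 to 5 were at 30.7, 25.4, 34.2, 24.9 and 26.3 TPM and the libraries labelled ATF1-KO at 15.2, 17.9, 29.3, 24.5 and 24.6 TPM. Replicates 1 and 2 were the lowest, replicates 4 and 5 lay just below the lowest control and replicate 3 lay within the control range, with a log2 change of -0.36 (95% interval -0.73 to 0.01, adjusted p = 0.674). In run 3 the values were 21.1, 31.6 and 37.2 TPM beside 35.5, 31.4 and 32.9 TPM, and they overlapped.

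Ep300 (ENSMUSG00000055024) gave changes near 0. The log2 change was -0.09 (95% interval -0.39 to 0.22) for ATF1-KO, -0.22 (95% interval -0.95 to 0.50) for ATF1/CREB1-KO and 0.03 (95% interval -0.27 to 0.33) for ATF1/CREB1/CREM-KO. In run 2 it was at 12.6, 12.6 and 13.3 TPM in the control clones and at 14.9, 13.5 and 6.25 TPM in the libraries labelled ATF1/CREB1-KO, so that replicates 1 and 2 were above the controls and replicate 3 below. Without replicate 3 the log2 change was 0.13.

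Sik1 (ENSMUSG00000024042), the cAMP-inducible kinase of the family, had 0 calls and groups that overlapped in all 3 comparisons. In run 1 it was at 13.2, 12.1, 8.17, 12.5 and 10.3 TPM in the control clones and at 14.1, 10.0, 10.8, 11.2 and 12.9 TPM in the libraries labelled ATF1-KO. The log2 change was 0.07 (SE 0.137, 95% interval -0.23 to 0.37, adjusted p = 0.912). In run 2 it was at 9.10, 6.83 and 8.31 TPM in the control clones and at 3.25, 9.07 and 2.04 TPM in the libraries labelled ATF1/CREB1-KO. Replicates 1 and 3 were well below the controls and replicate 2 was among them, with a log2 change of -0.83 (SE 0.421, 95% interval -1.82 to 0.16, adjusted p = 0.594). It was -1.33 without replicate 2 and -0.46 without replicate 3. In run 3 it was at 19.2, 10.3 and 18.0 TPM in the control clones and at 7.70, 13.2 and 13.7 TPM in the libraries labelled ATF1/CREB1/CREM-KO. Control clone 10 was the low control and lay below replicates 2 and 3 of the label, and the log2 change was -0.42 (SE 0.295, 95% interval -1.12 to 0.28, adjusted p = 0.404). It was -0.68 without control clone 10, -0.27 without control clone 9 and -0.18 without replicate 1. The intervals of runs 2 and 3 thus hold a change below -1 on the log2 scale as well as small changes above 0.

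Sik2 (ENSMUSG00000037112), the SIK studied in adipose tissue and other metabolic organs, was at 9.43, 10.5 and 7.73 TPM in control clones 6 to 8 and at 4.66, 8.95 and 6.46 TPM in the libraries labelled ATF1/CREB1-KO. Replicate 2 lay within the control range, and the log2 change was -0.44 (SE 0.248, adjusted p = 0.618). In run 3 the libraries labelled ATF1/CREB1/CREM-KO ranged from 15.8 to 20.9 TPM and the control clones from 20.5 to 20.9 TPM, with a log2 change of -0.17 (95% interval -0.47 to 0.12). In run 1 the log2 change was 0.06 (95% interval -0.16 to 0.29). In the GENCODE M21 annotation, 1429 of the 9539 exonic bases of Sik2 (15%) are shared with Ppp2r1b on the opposite strand. The library kit does not mark strand, so strand cannot tell these genes apart for reads there. The annotation behind the deposited values is not given, so how such reads were divided is unknown.

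Sik3 (ENSMUSG00000034135), a broadly expressed SIK, had mean changes close to 0 in runs 2 and 3. The log2 change was -0.03 (95% interval -0.55 to 0.49) for ATF1/CREB1-KO and 0.04 (95% interval -0.21 to 0.29) for ATF1/CREB1/CREM-KO. In run 2, control clones 6 to 8 were at 6.29, 6.48 and 5.75 TPM. The libraries labelled ATF1/CREB1-KO were at 5.27, 8.33 and 4.90 TPM, with replicates 1 and 3 below the controls and replicate 2 above. In run 1, control clone 3 was at 34.7 TPM while the other 4 control clones were at 16.2 to 20.3 TPM and the libraries labelled ATF1-KO at 17.0 to 19.1 TPM. The log2 change there was -0.19 (95% interval -0.56 to 0.19), and without control clone 3 it was -0.01.

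Promoter sequence is shown for Sik2 and Sik3 because ATF1, CREB1 and CREM bind the cAMP response element, and these were the 2 of 6 members in the RefSeq promoter table (GRCm38.p6, 250 bases before to 50 after the start site) with a half-site in that window. The half-site searched was TGACG on either strand, and the full palindrome TGACGTCA, which contains it. Crtc2 and Sik1 were not among the 6, so their promoters were not searched. The full palindrome was in 0 of the 6 promoters and in 588 of 32851 in the table (1.79%), and the half-site was in 6837 of them (20.8%). Capitals mark the half-sites, written as they stand on the gene's own strand.
Sik3, chr9:46012680-46012779, plus strand: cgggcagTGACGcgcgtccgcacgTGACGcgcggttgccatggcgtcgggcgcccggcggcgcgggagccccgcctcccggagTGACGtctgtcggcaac
Sik2, chr9:51009051-51009080, minus strand: gcccccTGACGtcggctcaCGTCAgcgccg
The 3 matches in Sik3 start at -133, -116 and -57 relative to the start site, and those in Sik2 at -1 and 13. These are matches of letters and not measured binding sites, and the RNA of both genes was not called under any label.

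Sik1 was set beside a list of 21 genes known as cAMP-responsive CREB targets, of which 18 were tested. The list was chosen with earlier results of these data known, so its counts and medians are descriptions. In the libraries labelled ATF1/CREB1/CREM-KO, 5 of the 18 were called lower and 0 higher (5.26% and 3.91% of all genes). In sign, 16 of 18 had a negative change, and the share of all genes with a negative change was not counted. The median was -0.39 beside -0.05 for all genes. Pde4b, a cAMP phosphodiesterase, fell by 4.47 (SE 0.165, adjusted p = 0.000413), from 30.9 ± 1.49 to 0.447 ± 0.221 TPM (SD, n = 3 each). Nr4a1, an immediate-early nuclear receptor, fell by 1.85 (SE 0.165, adjusted p = 0.00259), from 40.1 ± 3.11 to 10.5 ± 2.45 TPM. The groups of both genes lay far apart, whereas those of Sik1 overlapped. These were the 2 largest falls called, and most of the 18 targets were, like Sik1, not called. The change of Sik1, -0.42, was near the list median of -0.39. No difference between Sik1 and the targets was tested. Smaller falls were those of Id1, an inhibitor of helix-loop-helix factors, by 0.93 (adjusted p = 0.0252), of Fos by 0.87 (adjusted p = 0.00889) and of Cebpb by 0.78 (adjusted p = 0.00539). Pde4b, Nr4a1 and Cebpb stayed past the threshold with any 1 of the 6 libraries left out. Fos did not pass without control clone 9 (adjusted p = 0.0524) or without control clone 11 (0.0535), and Id1 passed only without ATF1/CREB1/CREM-KO replicate 1 (0.0121). Under the other labels 0 of 18 targets were called, beside 0% of all genes for ATF1-KO and 0.0715% for ATF1/CREB1-KO. The median was 0.09 for ATF1-KO, where 1 target had an unadjusted p under 0.05, beside 7.61% of all genes. It was -0.29 for ATF1/CREB1-KO, where 4 targets did, beside 9.53%. In the fit over all 22 libraries, 6 targets were called in the libraries labelled ATF1/CREB1/CREM-KO, beside 8.02% of all genes. They were Nr4a1, Pde4b, Fos, Id1, Nr4a2 and Btg2, while Cebpb was not called (adjusted p = 0.0558). The same fit called Nr4a1 and Pde4b in the libraries labelled ATF1/CREB1-KO, beside 4.58% of all genes.

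**Figure D3:**
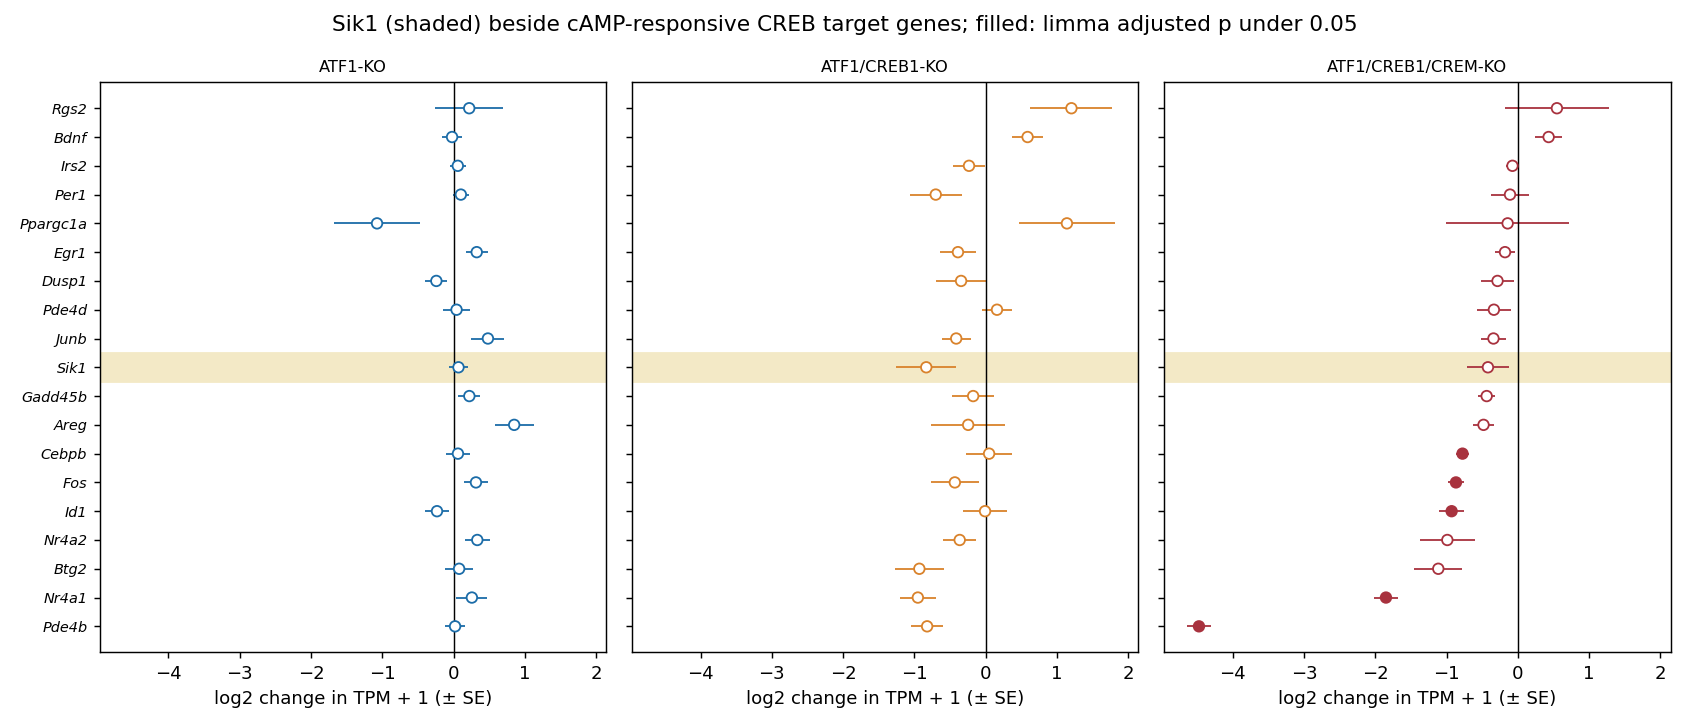
Log2 changes in TPM + 1 with standard errors for Sik1 (shaded row) and the tested cAMP-responsive CREB targets, 1 panel per knockout label; filled points have an adjusted p under 0.05. Filled points are seen for ATF1/CREB1/CREM-KO only, with Pde4b at -4.47 and Nr4a1 at -1.85, and Sik1 at -0.42 is open.

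The genes most like Sik1 over the 22 libraries, by Pearson correlation of log2(TPM + 1) after subtracting the control mean of the same run, were Myo18a (r = 0.891), Myo1c (0.865), Rpl23a (0.852) and Rack1 (0.851), among 10467 genes averaging 5 TPM or more. Within the 11 knockout libraries r was 0.923, 0.946, 0.886 and 0.924 for these genes. Within the 11 control libraries it was 0.677, 0.403, 0.492 and -0.0136, so the likeness to Rack1 lay in the knockout libraries. Among the members themselves, Sik1 was most like Crebbp (r = 0.602), and the highest correlation of any pair was that of Crtc3 and Sik2 (r = 0.689), followed by Crebbp and Ep300 (0.633). Sik3 had negative correlations with Crtc1 (-0.380), Crtc2 (-0.285) and Crtc3 (-0.236). These libraries share runs and overall composition, and the correlations are descriptions.

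The low values in run 2 and run 3 were spread unequally over libraries. In ATF1/CREB1-KO replicate 3 all 8 members were below all control clones of the run, where 36.2% of genes were. In replicate 1 of that label it was 6 of 8 members and 44.2% of genes, and in replicate 2 it was 3 of 8 and 43.1%. In ATF1/CREB1/CREM-KO replicate 1, 7 of 8 members were below all 3 controls, Crtc2 being above them, beside 38.6% of genes, and in replicates 2 and 3 it was 3 and 2 of 8 beside 39.5% and 37.8%. In the libraries labelled ATF1-KO it was 0 to 2 of 8 members beside 10.4% to 18.4% of genes. Without ATF1/CREB1-KO replicate 3 the log2 changes of that label were -0.73 for Crtc3, -0.46 for Sik1, -0.44 for Sik2, -0.21 for Crtc1 and -0.07 for Crtc2, and 0 members were called. The part of the low ribosomal share in the values of replicate 3 was not tested.

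The shares of the members in their family's summed TPM compare paralogs within a library. Crebbp made up 73.0% to 77.4% of the summed CBP and p300 TPM in control clones 6 to 8 and 63.9% to 69.8% in the libraries labelled ATF1/CREB1-KO, ranges that did not overlap. In run 3 the same share was 44.2% ± 1.86 among the control clones and 40.6% ± 4.62 under the ATF1/CREB1/CREM-KO label (SD, n = 3 each). Within the CRTC family, Crtc1 made up 28.9% to 36.2% in control clones 9 to 11 and 23.4% to 25.5% in those libraries, while Crtc2 went from between 59.2% and 65.7% to between 70.2% and 72.3%. Within the SIK family, Sik3 made up 25.3% to 27.2% in control clones 6 to 8 and 31.6% to 40.0% in the libraries labelled ATF1/CREB1-KO. Crtc3 made up 4.68% to 5.66% in control clones 9 to 11 and 4.32% to 4.39% under the ATF1/CREB1/CREM-KO label. Every share under ATF1-KO overlapped that of its controls. So did the shares of Crtc1, Crtc2, Crtc3, Sik1 and Sik2 in run 2, and of Crebbp, Ep300 and all SIK genes in run 3. Ranges of 3 libraries against 3 can separate by chance, and how often shares in other gene families separated was not counted. The shares were not tested, and a share can move through either partner.

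**Figure D4:**
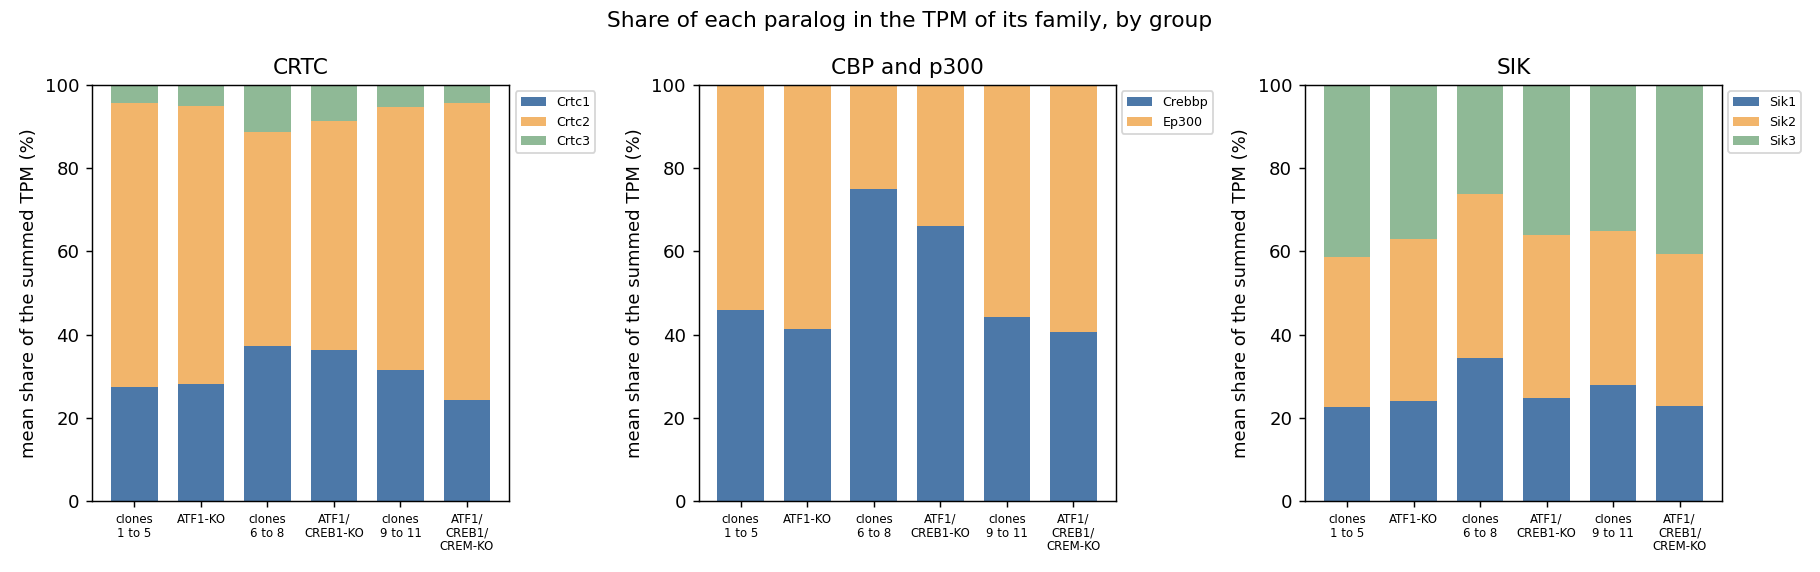
Mean share (%) of each paralog in the summed TPM of its family, 1 panel per family, with stacked bars for the 6 groups in the order of the runs. Crebbp leads Ep300 in both groups of run 2, with 75.0% in control clones 6 to 8, and trails it in the other groups.

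The genes that act around the members were mostly not called. Their lists too were chosen with earlier results of these data known. Of the 5 genes of the LKB1 complex, which activates the SIKs, of 6 tested calcineurin genes and of 3 tested class IIa histone deacetylases, which the SIKs phosphorylate, 0 were called under any label. The fit over all 22 libraries called the deacetylase gene Hdac4 for ATF1/CREB1-KO, beside 4.58% of all genes. At an unadjusted p under 0.05 the genes of these 3 lists numbered 1, 0 and 0 for ATF1-KO, beside 7.61% of all genes. They numbered 0, 0 and 1 for ATF1/CREB1-KO, beside 9.53%, and 1, 1 and 1 for ATF1/CREB1/CREM-KO, beside 27%. Of the 7 genes of the 14-3-3 proteins, which hold phosphorylated CRTC proteins, 1 was called: Ywhaz fell by 0.38 (adjusted p = 0.039) in the libraries labelled ATF1/CREB1/CREM-KO, where 9.17% of all genes were called. At an unadjusted p under 0.05 there were 4 of the 7 under that label, 6 of 11 other coactivators and 6 of 9 tested AMPK-related kinases, beside 27% of all genes. Of these coactivators, Cited2, a CBP and p300 partner, rose by 0.45 on the log2 scale (adjusted p = 0.0442) under that label, and Nono, which binds CRTC proteins, and Cited4 fell by 0.35 (0.0302) and 0.94 (0.0431). Each of these 4 passed in 1 of the 6 fits that left out a library, the one without ATF1/CREB1/CREM-KO replicate 1, with adjusted p of 0.0143 for Ywhaz, 0.0158 for Cited2, 0.0114 for Nono and 0.000524 for Cited4. None of the 4 passed in the fit over all 22 libraries.

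Among 12 AMPK-related kinases, relatives of the SIKs, 9 were tested in run 3 and 2 were called, beside 9.17% of all genes. Prkaa2, the alpha2 catalytic subunit of AMPK, was at 1.63 ± 0.365 TPM in control clones 9 to 11 and at 10.4 ± 2.04 TPM in the libraries labelled ATF1/CREB1/CREM-KO (SD, n = 3 each), and rose by 2.10 on the log2 scale (SE 0.207, adjusted p = 0.00345). Snrk, a sucrose non-fermenting 1-related kinase, fell by 1.01 (SE 0.131, adjusted p = 0.00827), from 26.9 ± 2.89 to 12.8 ± 1.39 TPM. Prkaa2 stayed past the threshold with any 1 library left out, and Snrk did except without control clone 9 (adjusted p = 0.0587). In run 2 the values were 0.96 for Prkaa2 (adjusted p = 0.375) and -1.14 for Snrk (adjusted p = 0.338), and in run 1 they were 0.05 and 0.03. In the fit over all 22 libraries Prkaa2, Snrk, Mark4 and Nuak2 were called in the libraries labelled ATF1/CREB1/CREM-KO, beside 8.02% of all genes. In those labelled ATF1/CREB1-KO that fit called Snrk and Mark4, beside 4.58% of all genes. No difference between these kinases and the SIKs was tested.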

How the data were processed

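The deposited values are TPM per gene, made by the authors with STAR and RSEM per the submitters' processing notes; versions, genome build and annotation are not given in the sources used here. Per the labels' protocols, cDNA came from a SMARTer V4 kit with PCR amplification and Nextera XT tagmentation, and was sequenced as paired-end reads. TPM keeps no depth, so sequencing depth is unknown and counting error could not be given. The 18 rescue samples of the 40 labelled were not analysed here.

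Each knockout label was compared with the control clones of its run on log2(TPM + 1) with limma 3.58.1 in R 4.3.3 (trend), for genes averaging 1 TPM or more in the libraries compared, with Benjamini-Hochberg adjustment over all genes and a threshold of 0.05. Fold changes on this scale understate those of low genes. Differences between labels came from 1 fit over 22 libraries with 6 means. The script was tested on simulated data. The members and gene lists were chosen with earlier results of these data known. Genes named were the members, Aqp2, Atf1, Creb1 and Crem, up to 4 called genes per list and direction, and the 4 genes most correlated with Sik1. Other markers and genes outside this rule were named after their values were seen. Alternatives were pseudocount, filter, scaling, fit, control set, replicate block and each library left out. Promoters are from RefSeq (GRCm38.p6) and exon overlaps from GENCODE M21.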

Additional observations from a re-analysis of the deposited data

Results flagged for a closer look

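Control clone 3 lay above the other 4 control clones of run 1 in a pair of SIK genes, and far above them in Sik3 only. Sik3 was at 34.68 TPM there, with a gap to the nearest clone of 0.777 of the range. Sik2 was at 21.66 TPM, with a gap of 0.756 of the range. That range was narrow, with the other 4 clones at 16.98 to 18.12 TPM, and ATF1-KO replicate 4 was at 22.07 TPM. Of 16 groups of 5 libraries looked at (8 genes in both groups of run 1), 2 were marked in this way, and chance marks about 1 in 20 groups. The same clone had the fewest genes above 0, 17296.

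In the fit over all 22 libraries, the change of Crtc3 differed between the libraries labelled ATF1/CREB1-KO and those labelled ATF1-KO by -0.95 on the log2 scale (limma adjusted p = 0.0342). The call was lost without some single libraries, with the values given above.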

How the results depend on the processing

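With all 11 control clones in place of own-run ones, 6 members were called lower in ATF1/CREB1-KO (Crtc1 -1.25, Crtc2 -1.69, Crtc3 -0.80, Ep300 -1.26, Sik1 -1.26 and Sik2 -1.16), where the median of all genes was also shifted, to -0.96, and 4260 genes were called, against 137 in ATF1/CREB1/CREM-KO. The same setting reversed Ep300 (0.18) and Sik3 (0.27) in ATF1-KO, and Crtc1 (0.16), Crtc3 (0.074), Sik1 (0.0071), Sik2 (0.20), Ywhaz (0.35) and Nono (0.25) in ATF1/CREB1/CREM-KO. Calls there were also lost for Nr4a1 (adjusted p = 0.548), Fos (0.701), Cebpb (0.707), Snrk (0.761), Cdh1 (0.548), Cited2 (0.587) and Cited4 (0.107). It mixes runs by construction. Without a filter, Id1 (0.0607), Ywhaz (0.0701), Cited2 (0.0853) and Cited4 (0.0905) lost their calls, as did Ywhaz with median-ratio scaling (0.0553). Without a filter, 0 genes were called in ATF1/CREB1-KO and 710 in ATF1/CREB1/CREM-KO. Genes called in ATF1/CREB1-KO were 18 with median-ratio scaling and 609 in the fit over 22 libraries. Of the calls in ATF1/CREB1/CREM-KO, 57.4% were lower, against 46.9% with median-ratio scaling and 46.7% with quantile normalization. Sik3 in ATF1/CREB1-KO was 0.018 with median-ratio scaling and 0.058 with quantile normalization. With median-ratio scaling the difference ATF1/CREB1/CREM-KO minus ATF1-KO was 0.0016 for Crtc2, and that minus ATF1/CREB1-KO 0.10 for Crtc1. The cause was not tested in these cases.

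With each library left out, genes called ranged from 0 to 1 in ATF1-KO, from 0 (without ATF1/CREB1-KO replicate 2) to 60 (without replicate 3) in ATF1/CREB1-KO, and from 185 (without control clone 9) to 3317 (without ATF1/CREB1/CREM-KO replicate 1) in ATF1/CREB1/CREM-KO. Members called ranged from 0 to 1 in the last, and were 0 in the others. Log2 changes that turned sign were -0.031 to 0.13 for Sik1 in ATF1-KO, -0.24 to 0.094 for Sik3 and -0.43 to 0.13 for Ep300 in ATF1/CREB1-KO, and -0.036 to 0.12 for Ep300, -0.010 to 0.10 for Sik3 and -0.35 to 0.044 for Crebbp in ATF1/CREB1/CREM-KO. The Crtc3 difference was -1.09 to -0.76. It was -1.08 (adjusted p = 0.00846) with median-ratio scaling and, in a setting added after seeing the data as were its left-out libraries, -1.30 (0.0278) with a pseudocount of 0.1. A filter at 5 TPM left out Crtc3.

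In run 1 both labels carry replicate numbers 1 to 5. Same-numbered libraries correlated at -0.103 to 0.0843 and 1 of 5 best with its own number, so the numbers do not pair them. A fit with the replicate block called 0 members and 0 genes, with 927 genes under 0.05 unadjusted. No paired analysis was possible because no numbers are shared in the other runs. Unknown depth limits what can be said of Crtc3, the lowest member.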
